A study of Danio rerio with 4 samples.

Results

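Hif-1α binding was examined at *pfkfb3*, a gene of chromosome 4, in the lists of ChIP-seq peaks from *vhl* mutant and wild-type zebrafish embryos. All peaks of either list were taken that shared at least 1 bp with chromosome 4 from 24445466 to 24687234 in the Zv9 (danRer7) assembly, which is the *pfkfb3* window of the study (24545466 to 24587234, 41769 bp) with 100 kb to each side. This gave 11 peaks of 6457 in all, 10 of the 5177 *vhl* peaks and 1 of the 1280 wild-type peaks. Position alone chose these members, but the locus itself was picked with its array of peaks known.

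Hif-1α is the oxygen-regulated subunit of the hypoxia inducible factor (HIF), a heterodimer that binds hypoxia response elements with the core ACGTG or GCGTG. In well oxygenated cells prolyl hydroxylases mark Hif-1α for pVHL, which directs it to the proteasome, and loss of *vhl* therefore stabilises it. *pfkfb3* encodes a bifunctional kinase and phosphatase whose kinase activity prevails. It makes the fructose bisphosphate that allosterically activates phosphofructokinase, the enzyme that commits sugar to glycolysis, and in human cells its gene is a known target of HIF-1. RefSeq names *prkcq*, a protein kinase C, and *rbm17*, a splicing factor, as its protein-coding neighbours on chromosome 4 of the GRCz12tu assembly, from which no positions were taken.

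The tested embryos were *vhl* mutants, given in the study as homozygous for the hu2117 allele and sorted by the fluorescence of a *phd3:gfp* reporter (i144). Wild-type embryos were set against them, and whether they carried the reporter was not given for this assay. Both genotypes were of a TL/LWT mix, were raised at 28 °C to 4 days post fertilisation and were de-yolked. The study's general methods name methylene blue in the raising medium, and apart from it neither genotype received an agent. For each genotype 1 pool of whole embryos gave 1 library from a custom Hif-1α antibody and 1 input library without antibody, so signals of all tissues were mixed and no value has a replicate error. The *vhl* ChIP library held 16145214 tags after removal of duplicates and the wild-type ChIP library 7554444, a ratio of 2.14. The fragment length modelled by the peak caller was 110 bp for *vhl* and 34 bp for wild-type. The wild-type value is shorter than the reads of 35 bp and so is not a credible fragment length. Whether these differences of library shaped the lists at *pfkfb3* was not tested. The intervals given are at 95% and cover counting error only, exact Poisson for tags and Wilson for shares.

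The study tested 1 site of the array by ChIP-qPCR, and its primers are shown because they tie that site to a named stretch of DNA. The region they were designed for lies in the peak numbered 9 in the following. They are printed 5′ to 3′ in lower case, and neither holds ACGTG or GCGTG on either strand. The study placed them to flank a hypoxia response element, and the sequence between them was not analysed here.
pfkfb3 forward primer: tttgcagcttaaagacccttg
pfkfb3 reverse primer: agggaatgggtggcagtag

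The 10 *vhl* peaks formed a compact array with nothing beside it. They lay between 24549318 and 24574052, a stretch of 24735 bp of which the peaks covered 9285 bp (37.5%). The flanks of 100 kb held 0 *vhl* peaks and 0 wild-type peaks. Within the searched region, 103852 bp below the array and 113182 bp above it were without a peak of either list. The nearest *vhl* peak on the lower side ended 293457 bp before the array (24255046 to 24255860, 44 tags, score 50.2, FDR 25.4%). On the higher side it began 548536 bp after it (25122589 to 25123200, 34 tags, score 54.7, FDR 15.8%). Here the score is minus 10 times the log10 of the peak caller's p-value, and the FDR is its false discovery rate. Both of these outer peaks were weaker by score than all 10 peaks of the array. Gaps of over 100 kb are common between neighbouring *vhl* summits, at 54.1% of 5152 neighbour pairs, so the empty flanks alone do not set the locus apart.

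**Figure D1:**
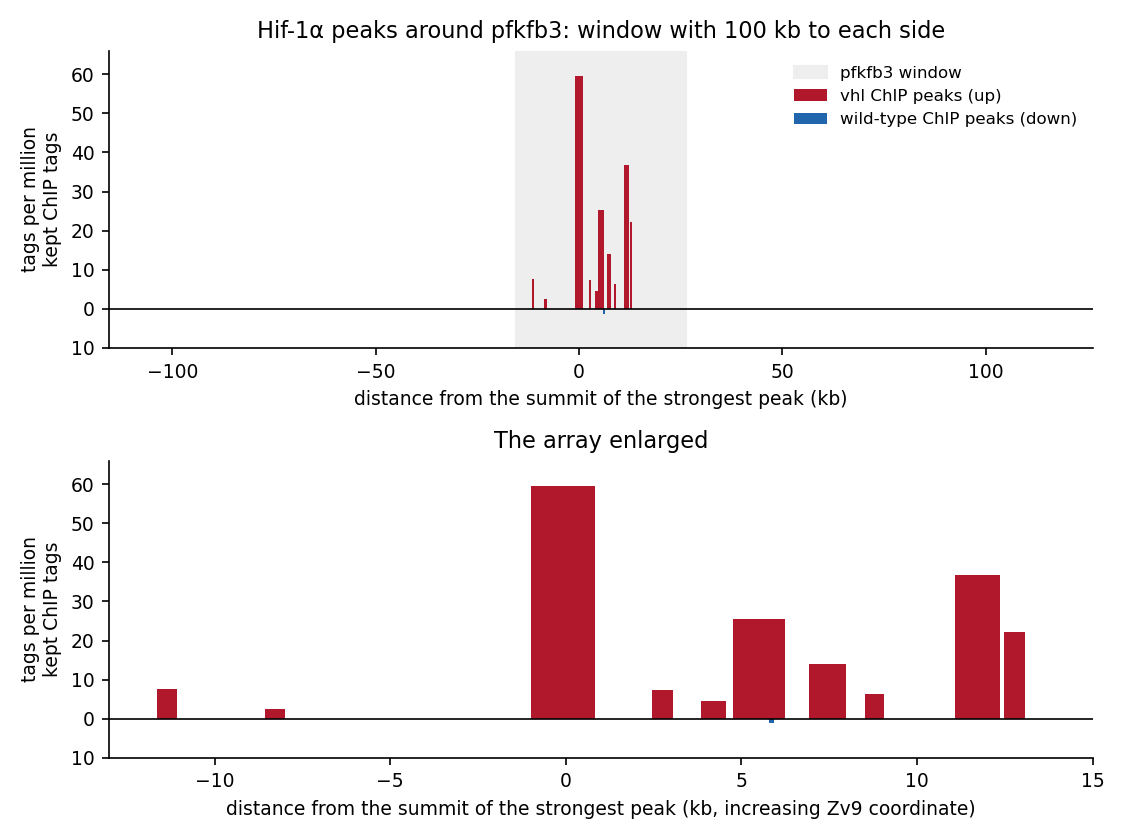
Peaks of both lists around *pfkfb3*, as tags per 1000000 tags kept of each ChIP library (vertical axis, *vhl* upwards and wild-type downwards) against distance in kb from the summit of the strongest *vhl* peak. Bars span the peaks, and in the wide view short ones are drawn wider than they are. The upper panel shows the empty flanks of 100 kb around the shaded window, and the lower panel the 10 *vhl* peaks and the single wild-type peak under the sixth of them.

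Numbered 1 to 10 by increasing coordinate, the *vhl* summits were spaced unevenly. Neighbouring summits were 725 to 8462 bp apart, with a median of 1717 bp over 9 pairs. All 9 pairs lay within 10 kb, against 12.0% of all 5152 pairs of neighbouring *vhl* summits. The median over all pairs was 120377 bp, 70.1 times that of the array, and 97372 bp over the 157 pairs of chromosome 4. The locus was picked with its array known, so close spacing followed from that choice and is a description only. Elsewhere, 6 *vhl* peaks on chromosome 1 lay within 15448 bp. The widest interval at *pfkfb3*, 8462 bp, parted peaks 1 and 2 from the rest, and the narrowest, 725 bp, joined peaks 9 and 10. Between edges the distances ran from 103 to 7000 bp.

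For description the array was divided by hand into 4 stretches of neighbouring peaks, which do not follow its widest gaps. The summits of peaks 1 and 2, kept together, were 2852 bp apart, while those of peaks 3 and 4, set apart, were 2747 bp apart. Peaks 1 and 2 at its low end held 162 of the 3005 tags (5.39%, interval 4.64 to 6.26%). Peak 3 alone held 32.0% (interval 30.3 to 33.7%). Peaks 4 to 8 followed within 6605 bp and held 929 tags, or 30.9% (interval 29.3 to 32.6%). Peaks 9 and 10 at the high end lay within 1994 bp and held 953 tags, or 31.7% (interval 30.1 to 33.4%). The shares of the last 3 stretches lay within each other's counting error, while the low end held far less. This likeness depends on the chosen division, since the stretches hold unequal numbers of peaks, and it does not show an even spread of tags along the locus. No Zv9 annotation was used here, so the exons, introns and start site of *pfkfb3* were not placed on these stretches.

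At the low end, peak 1 (24549318 to 24549906, summit 24549656) held 123 tags and stood 92.0 times above its local background, with an FDR of 0. Its score was 497, and it ranked 437 of 5177 by score. Peak 2 (24552400 to 24552980, summit 24552508) held 39 tags and stood 17.2 times above background. Its score was 67.8 and its FDR 3.1%. It was the weakest of the array on all 4 measures and ranked 3738 by score, below the median of the list. The Poisson intervals of their tags, 102 to 147 and 27.7 to 53.3, did not overlap.

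Peak 3 (24559981 to 24561812, summit 24560970) was the strongest. Its 961 tags (interval 901 to 1024) ranked 3 of all *vhl* peaks, and its length of 1832 bp ranked 14. Its score of 3100 is the highest in the list, shared by 8 peaks, so the score gives no order among those 8. Its fold enrichment of 95.03 ranked only 375.

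The 5 middle peaks spanned a wide range of heights within a short stretch. Peak 4 (24563409 to 24564017, summit 24563717) held 120 tags with a fold enrichment of 53.8, and peak 5 (24564815 to 24565527, summit 24565152) held 72 tags with a fold enrichment of 22.7. Peak 5 had a score of 116 and an FDR of 0.19%, and together with peak 2 it was the only member with an FDR above 0. Peak 6 (24565733 to 24567217, summit 24566869) held 410 tags (interval 371 to 452), at 89.9 times the background, and with a score of 1762 it ranked 55. Peak 7 (24567881 to 24568932, summit 24568082) held 226 tags at 45.2 times the background and scored 796. Peak 8 (24569481 to 24570013, summit 24569678) held fewer tags, 101, but had a larger fold enrichment of 66.03. Tags and fold enrichment therefore ordered this pair in opposite ways.

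At the high end, peak 9 (24572059 to 24573328, summit 24572888), the site of the ChIP-qPCR primers, held 595 tags (interval 548 to 645), at 155 times the background, and scored 2884. Peak 10 (24573432 to 24574052, summit 24573613) held 358 tags (interval 322 to 397), with a score of 2047. The fold enrichment of peak 10, 194, was the largest of the array and ranked 48 in the list. Peak 9 ranked 11 by score and peak 10 ranked 36. The edges of this pair were 103 bp apart, a distance shorter than the modelled *vhl* fragment length of 110 bp.

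**Figure D2:**
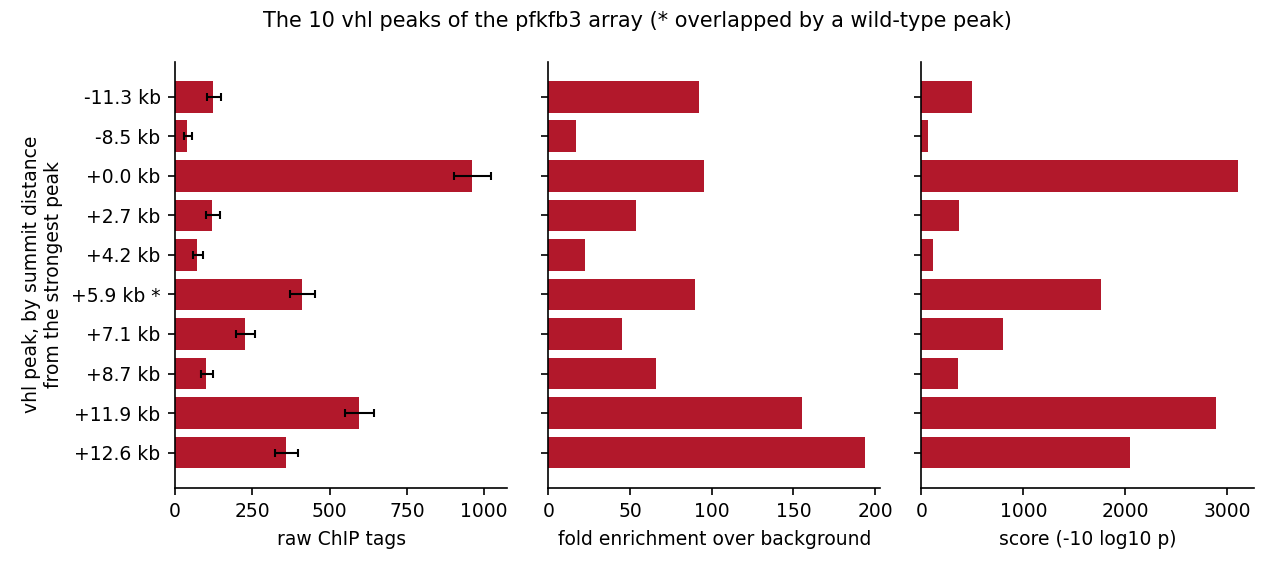
Raw ChIP tags (bars from 0, with exact 95% Poisson intervals), fold enrichment over the local background and score (minus 10 times the log10 of p) of each *vhl* peak of the array, from low to high coordinate, each named by its summit distance in kb from the strongest peak. Tags single out 1 peak of 961 at 0 kb, while fold enrichment is largest, at 155 and 194, in the pair at the high end. The asterisk marks the peak that a wild-type peak overlapped.

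The array stood high in the *vhl* list, but not in every member. All 10 peaks had an FDR of 5% or less, against 77.1% of the list, and 9 had a score of 100 or more, against 47.9%. A score of 1000 or more was reached by 4 of the 10 (peaks 3, 6, 9 and 10), against 3.07% of the list, and the same 4 were in the top 100. Of the members, 9 lay above the list's median number of tags (47) and 8 above its median fold enrichment (27.3). The median over the array was 174.5 tags, a fold enrichment of 78.0 and a score of 646, beside list medians of 47 tags, 27.3 and 95.4. The array made up 0.193% of the *vhl* peaks and held 0.833% of the tags in them, 4.31 times its share by number. Its share by length was larger than by number, at 0.294% of the bp in all *vhl* peaks. Of its own tags, the 4 peaks with the highest scores held 2324, or 77.3% (interval 75.8 to 78.8%).

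**Figure D3:**
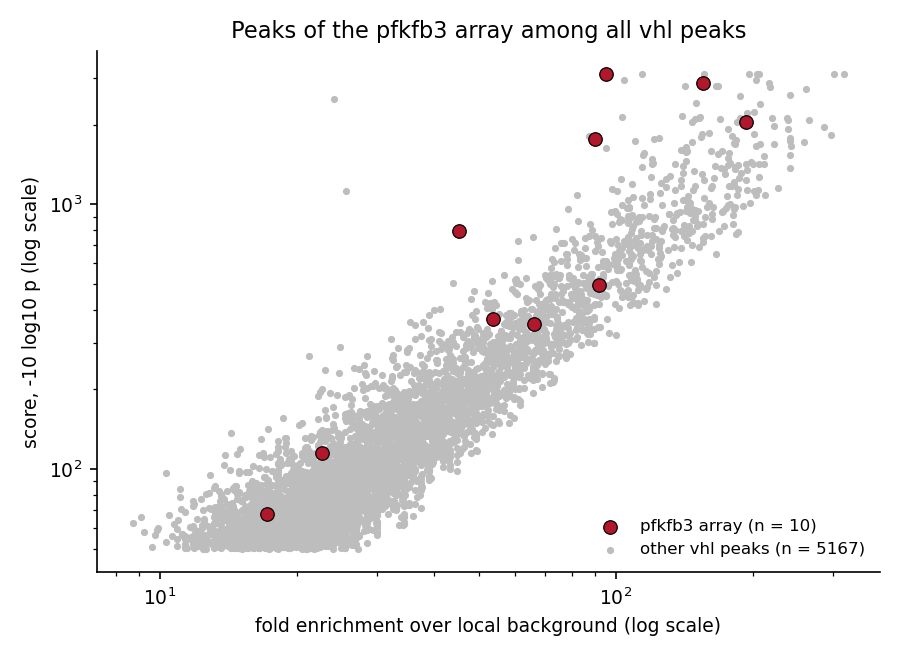
Score (minus 10 times the log10 of p) against fold enrichment over the local background, both on log axes, for the 10 peaks of the *pfkfb3* array (large points) and the other 5167 *vhl* peaks (small points). The array runs from scores of 67.8 to 3100, and 4 of its peaks, at fold enrichments of 45.2, 89.9, 95.03 and 155, lie above the bulk of peaks with a like fold enrichment.

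Set against all *vhl* peaks of no larger fold enrichment, the scores of peaks 3, 6, 7 and 9 were among the highest. The list median of fold enrichment was 27.3, so these sets hold many peaks of far smaller fold enrichment. The numbers are therefore not shares among peaks of a like fold enrichment or length. Of the 4802 other *vhl* peaks with no larger a fold enrichment than peak 3, 0 had a score as high. Of the 4776 such peaks for peak 6, 2 had at least its score, and of the 3946 for peak 7, 2 did. For peak 9 it was 3 of 5059. Peaks 4 and 10 followed with 18 of 4231 and 18 of 5129. For the remaining members the numbers were 65 of 4484 for peak 8, 87 of 4788 for peak 1, 38 of 1859 for peak 5 and 145 of 652 for peak 2. Peaks 3, 6, 7 and 9 were also long, as the 4 members over 1000 bp (1052 to 1832 bp), a length that 4.58% of the *vhl* peaks had. Per kb, peak 10 held 576 tags, peak 3 held 525 and peak 9 held 469, which ranked 2, 3 and 16 of the *vhl* peaks.

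The summit lay off centre in several members. Measured from the lower edge, it stood at 18.8% of the length in peak 2, at 19.2% in peak 7 and at 76.6% in peak 6. These 3 of the 10 had it in the outer 25% of the length at either end, against 4.67% of the *vhl* list. That share is over peaks of all lengths (median 567 bp), while peaks 6 and 7 were 1485 and 1052 bp long. Peaks of like length were not compared. In peaks 6 and 7, which neighbour each other, the summits lay towards each other, 1213 bp apart, with 663 bp between the edges. In peaks 1, 3, 4 and 5 the summit stood between 47.4% and 57.6% of the length, close to the middle.

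The wild-type list held 1 peak at the locus, from 24566762 to 24566869 with its summit at 24566791, and it counted 9 tags. It overlapped a *vhl* peak, as 12.6% of the wild-type peaks did. Its summit lay inside *vhl* peak 6, 78 bp below that peak's summit, and its last base coincided with the position of the *vhl* summit. The median distance between summits was 29 bp over the 161 overlapping pairs of the series, and 21.7% of the pairs were as far apart as this one or farther. The wild-type peak scored 70.1 and stood 22.6 times above background, both above the medians of its list (58.0 and 17.7). A score as high or higher was found for 16.9% of the wild-type peaks. Its FDR of 82.5% was nevertheless among the highest, since 4.92% of the wild-type peaks had as high a value or higher, and 3.59% had an FDR of 5% or less.

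The shared site was called over regions of unequal length in the *vhl* and wild-type lists, so its tags are given per library and per kb. Peak 6 held 25.4 tags per 1000000 tags kept (interval 23.0 to 28.0) in *vhl* mutants, and the wild-type peak held 1.19 (interval 0.545 to 2.26), a ratio of 21.3 (exact conditional interval 11.1 to 46.9). The peak regions differ in length by 13.8 times, with 1485 bp for *vhl* against 108 bp for wild-type embryos, and per kb the ratio was 1.55. Wild-type tags over the whole of peak 6 were not analysed here, and the modelled fragment lengths of the libraries were not matched. Over the whole window, peaks held 186 tags per 1000000 in *vhl* mutants against 1.19 in wild-type embryos, which is 156 times as many (interval 82.2 to 342). This ratio has the same limit, since the *vhl* peaks covered 9285 bp and the wild-type peak 108 bp. It counts only what was called as a peak, so the 9 *vhl* sites without a wild-type peak add no wild-type tags. The ratio and its interval therefore do not measure a difference of binding between the genotypes.

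No wild-type peak was called at the other 9 *vhl* peaks. Overlap by a wild-type peak, at 1 of 10 members, is rare in the list as a whole, at 2.92%. It was commoner for *vhl* peaks with a score of 1000 or more, at 27.0% of 159, and among the members it was 1 of 4. Peaks 3, 9 and 10, which scored above peak 6 in *vhl*, had none. Scaled to the depth of the wild-type library, the *vhl* members correspond to 18.2 tags (peak 2, over 581 bp) to 449.7 tags (peak 3, over 1832 bp). The wild-type peaks had a median of 7 tags over a median length of 99 bp, so these numbers do not show which sites could have been called there. The wild-type list gives no values below its threshold, and lower levels at these 9 sites were not analysed here.

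Windows as wide as that of *pfkfb3* were opened at each of the 5177 *vhl* summits to see how such arrays are spread over the genome. A single summit was found in 3732 windows (72.1%) and 2 in 1075 (20.8%). Of the 6 windows with 7 or more summits, 4 were opened at summits of *pfkfb3* and 2 elsewhere. Neighbouring windows share peaks. The largest number elsewhere was 8, against 10 at *pfkfb3*. This order depended on how peaks were divided: with peaks closer than 1000 bp merged, *pfkfb3* held 5 and another window 6, and with a window of 83538 bp both *pfkfb3* and another window held 10. Within 10 kb, a width chosen after the values had been seen, *pfkfb3* held 7 and no other stretch more than 4.

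**Figure D4:**
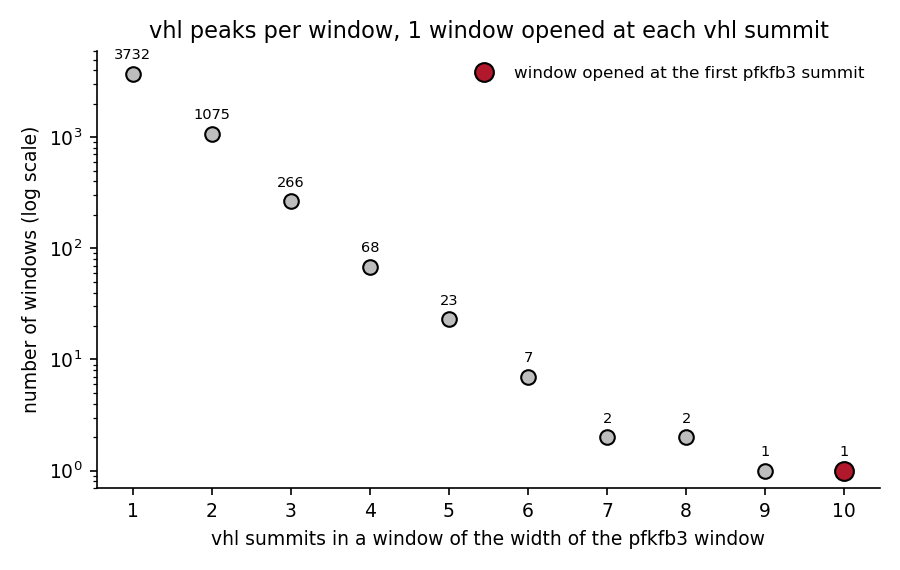
Number of windows (log axis) by the number of *vhl* summits they hold, with 1 window of 41769 bp opened at each of the 5177 *vhl* summits, so that neighbouring windows share peaks. The coloured point at 10 is the window opened at the first *pfkfb3* summit, and those opened at its next 3 summits are among the points at 7 to 9.

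The arrays most like it in number were of weaker peaks. The next was on chromosome 22 from 11252499 to 11292990, with 8 peaks, 518 tags and a median score of 109. It was followed by 6 peaks on chromosome 1 from 40466273 to 40481720 (683 tags, median score 263) and 6 on chromosome 17 from 11173238 to 11204283 (395 tags, median score 128). None of these 3 windows held a peak with a score of 1000 or more or one overlapped by a wild-type peak. Both are rare in the *vhl* list as a whole, at 3.07% and 2.92%, so their absence does not mark out these windows. Only the window at *pfkfb3* held 4 peaks with scores of 1000 or more, and 3 were the most in any other. By tags its window came second with 3005, after a window on chromosome 17 with 4 peaks and 5517 tags. That window (summits 9784338 to 9798409) is the region of *egln3*, a HIF prolyl hydroxylase also called *phd3*. The study made the *phd3:gfp* reporter of the *vhl* embryos with a bacterial artificial chromosome. Whether the reporter added tags to that window was not tested.

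Other enzymes of sugar metabolism whose peaks the study tested had 1 or 2 *vhl* peaks each in place of an array. For these, all peaks within 23232 bp of the tested summit were counted, the distance from peak 9 to the farthest member at *pfkfb3*. *gapdhs*, which encodes a glyceraldehyde phosphate dehydrogenase, had a tested *vhl* peak of 741 tags and score 2963, 1 other *vhl* peak 3855 bp away, and 1 wild-type peak. *pkm2a*, a pyruvate kinase, had a tested peak of 447 tags and score 2044 with 1 other *vhl* peak 7892 bp away. *tpi1b*, the triosephosphate isomerase, had a tested peak of 490 tags and score 2165 with 0 others. *mpi*, the mannose phosphate isomerase, had one of 402 tags and score 2030 with 0 others. The tested peak of *pfkfb3*, with 595 tags and a score of 2884, lay within the range of these 4, and the locus differed in its 9 further *vhl* peaks. That number was fixed in advance, since the distance was set by the *pfkfb3* array and the locus was picked with its array known. No wild-type peak was called near *pkm2a*, *tpi1b* or *mpi*, while that of *gapdhs* overlapped its tested peak with 10 tags. Among all 159 *vhl* peaks scoring at least 1000, a level that every tested peak named here reached, such overlap occurred at 27.0%. The overlap at *gapdhs* therefore does not set that gene apart from the other tested sites. The study chose these sites among its most significant *vhl* peaks with a hypoxia response element, so their heights are a description only.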

How the data were processed

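Hif-1α ChIP-seq libraries from 1 pool of *vhl* mutant and 1 pool of wild-type embryos were used as deposited peak lists. The authors aligned single reads of 35 bp to Zv9 (danRer7) with CASAVA 1.8.2, kept uniquely mapped reads, and called peaks with MACS 1.4.2 for each ChIP library (33429235 reads in *vhl*, 16780814 in wild-type) against its input at p = 1e-05, with 1 tag kept per position and the local background taken over 1000 and 10000 bp. The deposited lists give tags as raw counts, a score (minus 10 times the log10 of p), fold enrichment as a ratio over the local background, FDR in percent, and, per the file headers, the depths. Raw here means not scaled for depth, and duplicates were removed before peaks were called. The peak caller scaled ChIP and input of the same genotype to each other only, and tags were set side by side across genotypes here per 1000000 tags kept.

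Members, spacing, ranks, shares and windows were computed with pandas 2.3.3, numpy 2.4.6 and scipy 1.17.1 in Python 3.11.15, with figures from matplotlib 3.10.9, and the routines were tested on simulated data. Overlap meant at least 1 bp. With 1 library per genotype and kind no test was made. Alternatives were stricter thresholds, other overlap rules, merging, scaling, ranking and widths. All members of the locus, the tested glycolysis sites and the 3 next densest windows are named. The members and lists were chosen with earlier results of these data known. Promoter motifs, the sequence under the summits, the microarrays and the ChIP-qPCR values were not analysed here.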

Additional observations from a re-analysis of the deposited data

How the results depend on the processing

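Of 45 alternatives for 11 results, 33 stayed close to the main value. Close meant within the counting interval for shares and the ratio of tags, and within 1.5 times for all others. The 33 include all alternatives for the flanks, which were stricter thresholds, merging or narrower flanks and could only leave empty flanks empty. For the most *vhl* peaks in any other window, staying close did not keep the order. With peaks closer than 1000 bp merged it was 6 against 5 at *pfkfb3*, and in a window of 83538 bp it was 10 against 10. Merging peaks closer than 1000 bp left 5 *vhl* peaks at *pfkfb3*. With an FDR of 5% or less or a score of 100 or more, 0 wild-type peaks remained in the window and 0 *vhl* peaks had an overlap, and with summit windows sharing at least 50% the overlap was also 0. The share of the strongest *vhl* peak was 25.8% with scores in place of tags. The median distance was 797 bp between edges and 2852 bp with peaks closer than 500 bp merged. The median rank of the *vhl* peaks was 547 by fold enrichment, against 337.5 by score. The most *vhl* peaks in any other window were 5 with scores of 100 or more, and 4 in a width of 10 kb (added after seeing the data). Without scaling for depth the *vhl* to wild-type ratio of tags in the window was 334, against 156. It counts among the 33 only because the interval of the main ratio, 82.2 to 342, is wide. Both ratios rest on 9 wild-type tags. No paired analysis was possible because each group has 1 sample. At the wild-type depth, the peak of 9 tags has an interval of 4.12 to 17.1 tags.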
